A study of Mus musculus with 24 samples.

Results

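The transcripts described here are 9 genes of cardiac muscle, read in bulk RNA from the mouse aorta: the myosin heavy chains Myh6 and Myh7, the myosin light chains Myl2, Myl4 and Myl7, the thin filament genes Actc1, Tnnt2 and Tnni3, and the hormone gene Nppa. They were taken by symbol from the deposited count table, which lists 41128 genes and holds all 9. Of these 9 genes, 6 (Myh6, Myh7, Actc1, Myl4, Tnnt2 and Tnni3) passed the filter on low counts that left 16316 genes for testing. Myl2, Myl7 and Nppa did not pass it.

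RNA came from the aortas of 24 mice, 5 months old, with 1 library per mouse. KO mice carried the targeted Ppp3cb allele of the stock B6,129S6-Ppp3cbtm1Jmk/J, which the labels do not restrict to any cell type, and the others were WT. AngII mice received angiotensin II at 500 ng per kg per min from an implanted osmotic minipump for 4 weeks, and whether control mice carried a pump is not stated. The groups were KO AngII, KO control, WT AngII and WT control, each with 3 male and 3 female mice, so that p-values measure the spread between these mice. The labels give the tissue as aorta and do not say whether the root, the segment next to the heart, was included.

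Cardiac muscle contracts when calcium binds the troponin complex on the thin filament, which lets the myosin heads of the thick filament pull on actin. Its cells use their own isoforms of these proteins: alpha and beta myosin heavy chain from Myh6 and Myh7, cardiac alpha-actin from Actc1, and cardiac troponin T and I from Tnnt2 and Tnni3. Myl4 and Myl7 encode light chains typical of the atria, Myl2 encodes the regulatory light chain of the ventricles, and Nppa encodes the precursor of atrial natriuretic peptide, a hormone that lowers blood pressure. The aortic wall is built of smooth muscle, whose myosin heavy chain gene is Myh11, and cardiac muscle ends where the aorta leaves the left ventricle. Calcineurin, whose beta catalytic subunit Ppp3cb encodes, acts through NFAT factors in the growth of heart muscle.

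Each of the cardiac myosin heavy chain genes carries a microRNA in an intron, and the pair is shown because both share 1 seed and mark the loci whose counts are compared below. The seed, bases 2 to 8, is in capitals, and sequences and positions are from RefSeq (GRCm38.p6).
mmu-miR-208a-3p, chr14:54949072-54949093, minus strand: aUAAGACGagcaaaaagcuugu
mmu-miR-208b-3p, chr14:54975710-54975731, minus strand: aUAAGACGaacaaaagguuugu
Mir208a, in Myh6, had 6 counts in KO control female 3 and 0 in the other 23 libraries. Mir208b, in Myh7, had 5 counts in KO AngII male 3 and 0 in the other 23 libraries. These libraries were not prepared for small RNA, and neither of the 2 libraries was the highest for the host gene.

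Promoters were matched for all 9 genes, and 3 are printed because they belong to the gene counted in every library (Tnnt2), the gene with the highest level per length (Actc1) and the gene at 0 in most libraries (Nppa). Each run is the 150 bases before a RefSeq transcript start (GRCm38.p6), 5′ to 3′ on the gene's strand, with motif matches in capitals.
Tnnt2 promoter, chr1:135836184-135836333, plus strand: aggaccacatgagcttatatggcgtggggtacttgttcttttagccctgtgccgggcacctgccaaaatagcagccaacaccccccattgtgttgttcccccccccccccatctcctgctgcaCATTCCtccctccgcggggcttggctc
Actc1 promoter, chr2:114052876-114053025, minus strand: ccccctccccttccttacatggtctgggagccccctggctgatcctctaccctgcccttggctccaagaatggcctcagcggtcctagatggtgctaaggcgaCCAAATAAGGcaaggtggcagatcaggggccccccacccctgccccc
Nppa promoter, chr4:148000572-148000721, plus strand: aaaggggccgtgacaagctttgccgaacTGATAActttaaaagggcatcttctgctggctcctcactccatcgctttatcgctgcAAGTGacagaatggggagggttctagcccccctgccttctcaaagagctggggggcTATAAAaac
Both strands were searched for the muscle element that TEAD factors bind, spelled CATTCC, and for the box of the general start machinery, spelled TATAAA. Sites of the zinc finger factors of the heart were searched as AGATAA and as the variant word TGATAA, and the core word of the homeobox factor of the heart as AAGTG. The CArG box, which serum response factor binds, was searched as CC, then 6 bases that were each A or T, then GG. The core word of NFAT sites was searched as GGAAA. The Tnnt2 run held CATTCC, starting 27 bases before the transcript start, and 7.59% of 32851 promoters of the same length hold it. The other Tnnt2 promoter entry, at chr1:135836839-135836988, held no match to any of these words. The Actc1 run held a CArG box, which 0.916% of those promoters hold. The Nppa run held TGATAA, and 9.65% of promoters hold that word or its variant. It also held AAGTG, as do 26.4% of promoters, and TATAAA, as do 7.57%. GGAAA, which 37.6% of promoters hold, was in none of the 3 printed runs. Of the other 6 genes, Myl4 held it 4 times, Tnni3 1 time and the 2 Myh7 entries 2 times and 1 time. The matches are descriptions of these windows and none of the deposited measurements reads binding there.

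Library totals were 1523328 to 6352365 counts, with a median of 3835993, and a gene with 3 counts, the upper limit that a count of 0 allows, corresponds to 0.496 to 1.91 CPM. CPM values are counts scaled to 1 common library size after TMM normalization, and all limits of this kind cover counting error only. The targeted gene Ppp3cb stood at 21.3 ± 6.11 CPM in KO and 41.9 ± 10.8 CPM in WT libraries (SD, n = 12 each), a difference of -1.01 ± 0.16 on the log2 scale (SE; edgeR, adjusted p = 0.000177). Counts on the gene thus remained in KO libraries, and whether they come from a working transcript was not tested. The 3 KO control female libraries had the 3 lowest library totals. Olfactory and vomeronasal receptor genes took 1001 to 1992 CPM of their protein-coding counts, against 110 to 1073 CPM in the other 21 libraries, and the highest of these was KO AngII female 1, at 1073 CPM. Among all genes past the filter, 17.5% had their highest level in KO control female 1 alone, the shallowest library.

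The 9 cardiac muscle genes were scarce in every aorta. Together they had 37 to 290 counts per library, with a median of 88.5, which is 0.00112% to 0.011% of all counts. Genes annotated as rRNA, snRNA or miscellaneous RNA took 2.51% of all counts in KO control female 1, which had the share of 0.011%. They took 40.3% in KO AngII female 1, which had a share of 0.00565%, so the shares also depend on that part. The summed level of the 9 genes was 10.2 to 106 CPM, against 7681 to 23216 CPM for the 10 measured smooth muscle genes. Between 5 and 8 of the 9 had at least 1 count in a given library, and no library had counts on all 9. In bulk tissue, fewer heart muscle cells and less RNA per cell cannot be told apart.

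**Figure D1:**
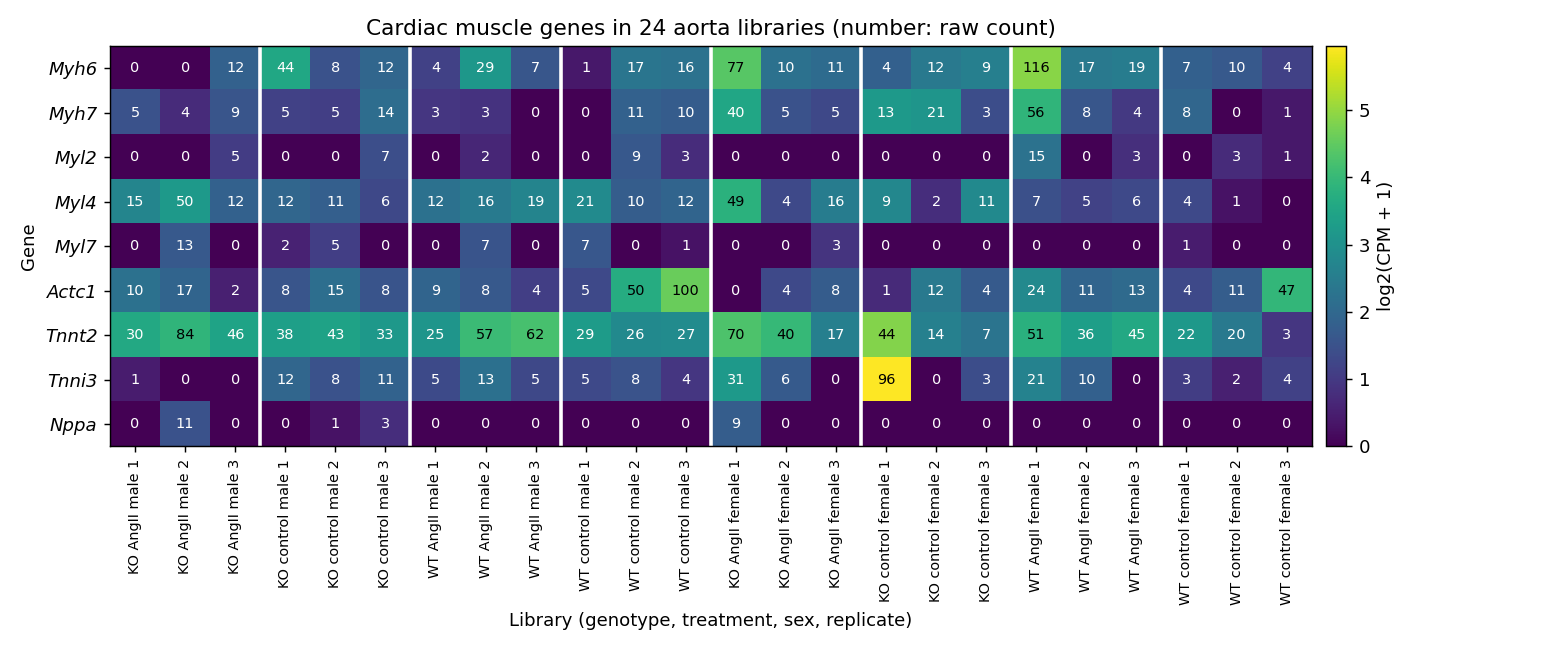
Counts of the 9 cardiac muscle genes (rows) in each of the 24 libraries (columns, by genotype, treatment, sex and replicate); colour is log2(CPM + 1) and the printed number is the raw count. Tnnt2 is counted in every library, Nppa is at 0 in 20, and the brightest cells fall in single libraries such as KO control female 1 (96 Tnni3 counts) and WT AngII female 1 (116 Myh6 counts).

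Levels of different genes were compared per kilobase of exon, over all 24 libraries. The length was that of all annotated exons of a gene joined, such as 7752 bases for Tnnt2, 1618 for Actc1 and 590 for Myl7. Single transcripts can be shorter, so the order depends on this choice. By mean CPM without a length, Tnnt2 was highest at 10.2, against 4.08 CPM for Actc1. Actc1 was highest at 2.52 CPM per kb, followed by Tnni3 at 2.07 and Tnnt2 at 1.32 CPM per kb. Myl4, Myh6 and Myl7 came next at 0.773, 0.746 and 0.653 CPM per kb, and Myh7, Nppa and Myl2 were lowest at 0.331, 0.248 and 0.248 CPM per kb. Most neighbours in this order overlap in their spread over libraries, and the means of Actc1 and Tnni3 are carried by few libraries. The smooth muscle gene Myh11 averaged 951 CPM per kb, so the 9 genes stood at 0.0261% to 0.266% of it.

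**Figure D2:**
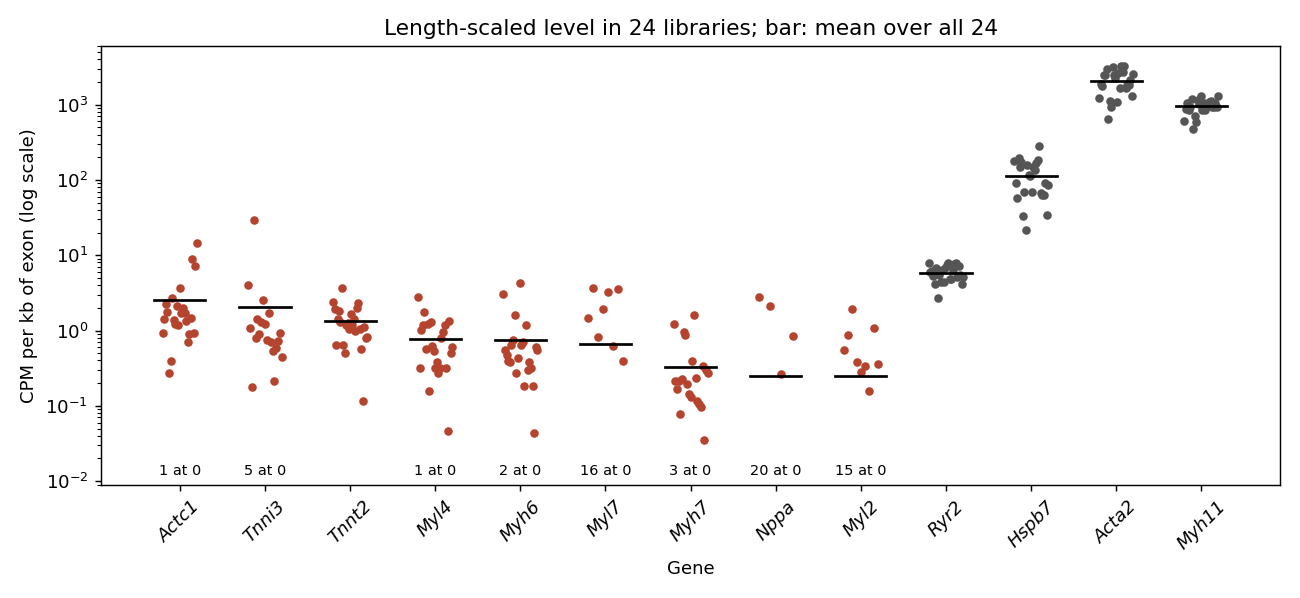
CPM per kilobase of exon on a log axis for the 9 cardiac muscle genes (red, in order of their mean) and, to their right, 4 genes that the aortic wall expresses more highly (grey); each point is 1 library, the bar is the mean over 24, and libraries at 0 are counted below. The 9 genes average 0.248 to 2.52 CPM per kb, against 951 CPM per kb for Myh11.

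Among the heavy chains, Myh6 (ENSMUSG00000040752, chromosome 14, 54941921 to 54966927, minus strand, mm10) encodes the main cardiac myosin of the adult mouse heart. It had 0 to 116 counts, with a median of 10.5, and was at 0 in 2 libraries. The group values of Myh6, lowest, median and highest of 6 mice, were 0, 2.91 and 20.3 CPM in KO AngII, 1.83, 3.62 and 10.7 CPM in KO control, 1.23, 4.50 and 29.0 CPM in WT AngII, and 0.296, 2.37 and 4.01 CPM in WT control mice. All 4 ranges overlap, and the 2 highest values belong to replicate 1 of the WT AngII females and replicate 1 of the KO AngII females.

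Myh7 (ENSMUSG00000053093, chromosome 14, 54970684 to 54994626, minus strand), the beta chain of the fetal ventricle and of slow skeletal muscle, is separated from Myh6 by 3756 bases. Its group values were 0.661, 1.84 and 10.6 CPM in KO AngII, 1.14, 2.53 and 8.28 CPM in KO control, 0, 0.953 and 14 CPM in WT AngII, and 0, 1.32 and 2.93 CPM in WT control mice. The same 2 libraries were highest for Myh7, at 56 counts in WT AngII female 1 and 40 counts in KO AngII female 1. These paralogs are alike in sequence: 20.2% of the 50-base words of Myh6 transcripts and 15.6% of those of Myh7 transcripts also occur in other genes, mostly in each other, so the split of counts between them is uncertain. Over the 24 libraries their Spearman rho was 0.506, the highest of the 15 pairs among the 6 tested genes (range -0.47 to 0.506, median 0.1), a description over libraries that differ in depth. Both genes lie 34.4 Mb from Ppp3cb on the same chromosome.

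Set against smooth muscle myosin, the cardiac heavy chains were a trace. Myh6 and Myh7 together made up 0.00374% to 0.664% of the counts on Myh6, Myh7 and Myh11, with a median of 0.065%. Only KO AngII female 1, at 0.664% (Wilson 95% interval 0.554% to 0.795%), and WT AngII female 1, at 0.661% (0.57% to 0.767%), were above 0.3%. The next highest were the KO control females 1, 2 and 3, at 0.297%, 0.221% and 0.149%, on 5709, 14872 and 8054 counts of Myh11, the fewest of all libraries. The lowest was WT control male 1, at 0.00374% (0.00066% to 0.0212%), on 1 count of Myh6 and 0 of Myh7.

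Of the light chains, the atrial essential chain Myl4 (ENSMUSG00000061086, chromosome 11, 104550663 to 104595753, plus strand) was counted in 23 of 24 libraries. Its group values were 1.48, 5.08 and 12.9 CPM in KO AngII, 0.72, 2.72 and 6.10 CPM in KO control, 1.27, 2.72 and 5.46 CPM in WT AngII, and 0, 1.91 and 6.21 CPM in WT control mice. The highest 2 were KO AngII female 1 and KO AngII male 2, and all 4 ranges overlap.

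The atrial regulatory chain Myl7 (ENSMUSG00000020469, chromosome 11, 5896637 to 5898782, minus strand) was at 0 in 16 libraries. It was counted in 4 of 12 KO and 4 of 12 WT libraries, with a total of 23 counts in KO and 16 counts in WT. Its highest counts were 13 in KO AngII male 2 and 7 each in WT AngII male 2 and WT control male 1. Myl2 (ENSMUSG00000013936, chromosome 5, 122100951 to 122113472, plus strand), the ventricular regulatory chain, was at 0 in 15 libraries. It was counted in 2 of 12 KO libraries, with 12 counts in all, and in 7 of 12 WT libraries, with 36 counts in all. The highest Myl2 count was 15, in WT AngII female 1, and no KO female library had any.

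On the thin filament, Tnnt2 (ENSMUSG00000026414, chromosome 1, 135836354 to 135852260, plus strand) was the one gene of the 9 with counts in all 24 libraries, from 3 to 84. Its group values were 4.95, 12.4 and 18.5 CPM in KO AngII, 3.88, 8.65 and 28 CPM in KO control, 7.68, 11.9 and 17.8 CPM in WT AngII, and 0.912, 6.21 and 8.58 CPM in WT control mice. WT control mice were the lowest group by median, and their range met that of WT AngII mice only between 7.68 and 8.58 CPM. The highest value, 28 CPM, was KO control female 1, whose 2 companions stood at 5.04 and 3.88 CPM.

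Tnni3 (ENSMUSG00000035458, chromosome 7, 4518305 to 4524229, minus strand), the inhibitory subunit, had 96 counts or 61.1 CPM in KO control female 1. The next highest library was KO AngII female 1 at 8.18 CPM, and the median over all 24 was 1.51 CPM. In the other 5 KO control mice Tnni3 lay between 0 and 2.93 CPM. Its group values were 0, 0.183 and 8.18 CPM in KO AngII, 0, 2.25 and 61.1 CPM in KO control, 0, 2.04 and 5.25 CPM in WT AngII, and 0.435, 1.16 and 1.89 CPM in WT control mice, so that all groups overlap. Its exons overlap those of Dnaaf3 on the same strand by 86 bases, and Dnaaf3 had 0 counts in KO control female 1.

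Actc1 (ENSMUSG00000068614, chromosome 2, 114047282 to 114053548, minus strand) was high in other libraries than the troponins and myosins. Its counts were 100 in WT control male 3, 50 in WT control male 2 and 47 in WT control female 3, and 0 to 24 in the other 21 libraries. Its group values were 0, 1.90 and 3.67 CPM in KO AngII, 0.637, 2.09 and 4.32 CPM in KO control, 1.15, 2.78 and 6 CPM in WT AngII, and 1.47, 7.09 and 23.3 CPM in WT control mice. The 3 high libraries are all WT controls, while the other 3 WT controls lay at 1.47 to 2.39 CPM, inside the range of every other group. No 50-base word of Actc1 transcripts occurs in another gene, so its counts are not shared with the other actins at that length.

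Nppa (ENSMUSG00000041616, chromosome 4, 148000722 to 148002079, plus strand) had counts in 4 libraries, all from KO mice: 9 in KO AngII female 1, 11 in KO AngII male 2, 3 in KO control male 3 and 1 in KO control male 2. All 12 WT libraries were at 0, as were the other 8 KO libraries. A count of 0 allows up to 3 counts in a library, as many as in 1 of the 4 KO libraries and more than in another, so Nppa at that level was not detectable in WT, and the gene did not enter the main test. In the fit without a count filter its difference between KO and WT in AngII mice had an adjusted p of 0.584 (edgeR). The antisense gene Gm13054 covers 532 of the 865 exonic bases of Nppa, strandedness of the counting is not given in the sources used here, and Gm13054 had 0 counts in all 4 of those libraries.

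**Figure D3:**
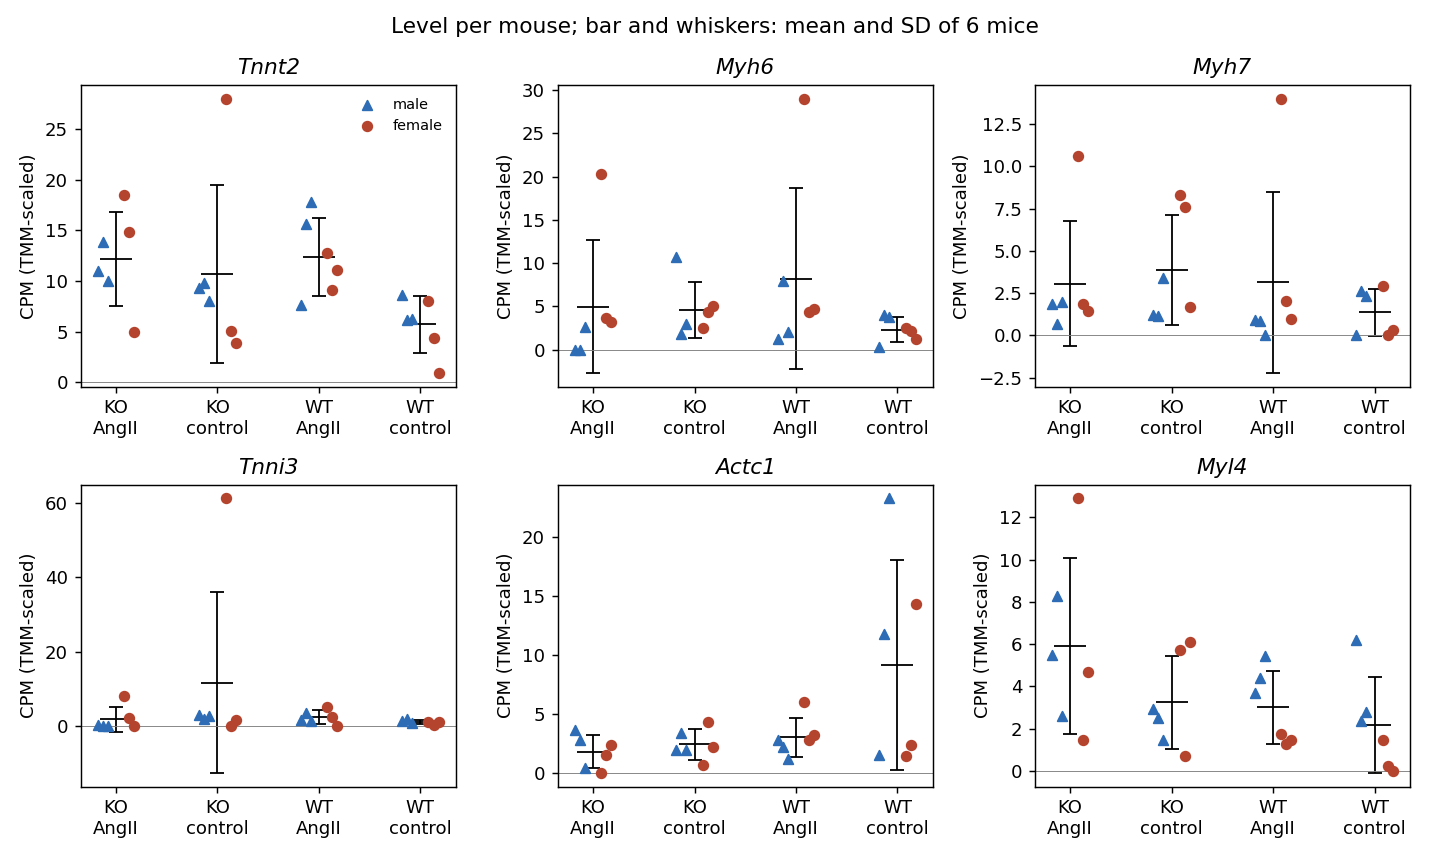
TMM-scaled CPM of the 6 tested genes in each mouse, by genotype and treatment (triangles, males; circles, females); bars and whiskers are the mean and SD of 6 mice. Single libraries set the upper end of most panels, such as 61.1 CPM of Tnni3 in KO control female 1 and 29.0 CPM of Myh6 in WT AngII female 1, while Tnnt2 is spread more evenly.

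Library by library, several genes were high in the same library, but the 9 did not rise as 1 block. WT AngII female 1 was highest for Myh6, Myh7 and Myl2 and also held 74 counts of Mb, the myoglobin gene, which had at most 8 counts in any other library, while Myl7 and Nppa were at 0 there. KO AngII female 1 was highest by CPM for Myl4 and Nppa. It was second highest for Myh6 (77 counts), Myh7 (40 counts), Tnnt2 and Tnni3, at 20.3, 10.6, 18.5 and 8.18 CPM. The same library had 0 counts of Actc1, Myl2 and Myl7. KO AngII male 2 was highest for Myl7, with 50 counts of Myl4 and 11 of Nppa, but 0 counts of Myh6, Myl2 and Tnni3. KO control female 1 was highest for Tnnt2 and Tnni3, with 4 counts of Myh6 and 0 of Myl2, Myl7 and Nppa. Myl2, Myl7 and Nppa were at 0 in 15, 16 and 20 of the 24 libraries, so their zeros say little about a single library. Whether heart muscle adhering to some aortas had a part in these values was not tested.

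The treatment comparison in KO mice asked what AngII does in mice with the targeted Ppp3cb allele. None of the 6 tested genes passed the threshold (edgeR, adjusted p under 0.05), and 0% of all 16316 genes did. Unadjusted p-values under 0.05 were reached by 1 of the 6 and by 7.71% of all genes, and DESeq2 called 17 genes, none of them among the 6. Tnni3 had the largest difference, at -3.48 ± 1.11 on the log2 scale with an adjusted p of 0.388, AngII over control. Without KO control female 1 it was -1.11, with an adjusted p of 0.888. Without a count filter its adjusted p was 0.0203, on a value of -3.45 that rests on the same library, and it was 1.16 once KO control female replicates 1 and 3 were left out together. Myh6 stood at -0.64 ± 0.76, and between -3.00 without KO AngII male 3 and -0.08 without KO control male 1. The fit without KO AngII male 3 leaves 2 KO AngII males, both at 0 counts of Myh6, so the size of -3.00 is uncertain. Tnnt2 stood at 0.23 ± 0.44, and between 0.05 without KO control female 3 and 0.93 without KO control female 1. Myh7 stood at -0.35 ± 0.89, Actc1 at -0.54 ± 0.75 and Myl4 at 0.94 ± 0.67, and the adjusted p of these 5 genes over all 24 libraries was 0.779 or more.

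In WT mice the same comparison called 0.208% of all genes, 34 in number, and 0 of the 6 tested cardiac muscle genes. Tnnt2 had 12.8, 9.15 and 11.1 CPM in AngII females against 8.06, 4.35 and 0.912 CPM in control females, and 7.68, 15.6 and 17.8 CPM in AngII males against 8.58, 6.13 and 6.29 CPM in control males. The male groups overlapped. The female groups did not, but they hold 3 mice each, and the share of all genes that separate in this way was not counted. The difference over both sexes was 1.15 ± 0.45 (edgeR, adjusted p = 0.559). It kept its sign in all 24 fits that left out 1 library, at 0.91 to 1.47. Myh6 stood at 1.56 ± 0.76 (adjusted p = 0.743), and at 0.82 without WT AngII female 1. Actc1 stood at -1.58 ± 0.72 (adjusted p = 0.685), and at -0.77 without WT control female 3. Unadjusted p-values under 0.05 were reached by these 3 of the 6 genes and by 6.71% of all genes.

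The interaction asked whether the response to AngII differed between the genotypes. It called 0% of all genes and 0 of the 6 with edgeR, and 0 genes with DESeq2 or limma-voom, while 4.03% of all genes and 1 of the 6 had an unadjusted p under 0.05. The KO response minus the WT response was -4.53 ± 1.47 for Tnni3, which had the lowest unadjusted p (0.00428) and an adjusted p of 1 (edgeR). Without KO control female 1 the value was -2.15. Tnnt2 stood at -0.92 ± 0.63, and at -0.22 without KO control female 1. Myh6 stood at -2.20 ± 1.08, at -4.55 without KO AngII male 3 (the KO AngII males left had 0 counts) and at -1.43 without WT AngII female 1. Each of these values had an adjusted p of 1, so that a different response of the genotypes was not shown for either.

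KO and WT were then compared within each treatment. In AngII mice 0.355% of all genes were called and 0 of the 6 (edgeR; 0 at an unadjusted p under 0.05, against 7.75% of all genes). Myh6 differed by -1.24 ± 0.76 (adjusted p = 0.814), by -1.94 without KO AngII female 1 and by -0.53 without WT AngII female 1. Without KO AngII male 3 it differed by -3.65, in a fit where the KO AngII males left had 0 counts of Myh6. Tnnt2 differed by -0.01 (adjusted p of 1) there, where Tnnt2 averaged 12.2 ± 4.64 CPM in the KO and 12.4 ± 3.86 CPM in the WT group (SD, n = 6 each). In control mice 0.221% of all genes were called and 0 of the 6 (2 at an unadjusted p under 0.05, against 9.73% of all genes). Tnni3 differed by 2.63 ± 0.99 (adjusted p = 0.343), and by 0.27 without KO control female 1. Actc1 differed by -1.79 ± 0.73 (adjusted p = 0.388), with 2.42 ± 1.29 CPM in KO control and 9.11 ± 8.91 CPM in WT control mice (SD, n = 6 each), and by -0.99 without WT control female 3. Tnnt2 differed by 0.91 ± 0.46 (adjusted p = 0.524), and by 0.20 without KO control female 1. The comparisons within genotype and within treatment share these libraries, so their values are not independent of each other.

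Over all mice, KO against WT called 1.34% of all genes and 0 of the 6 (edgeR; 2 at an unadjusted p under 0.05, against 13% of all genes). Actc1 had 0, 2.09 and 4.32 CPM (lowest, median and highest of 12) in KO and 1.15, 2.78 and 23.3 CPM in WT libraries. Of the 12 KO libraries 3, at 0, 0.437 and 0.637 CPM, lay below every WT library and the other 9 within the WT range, and the difference was -1.27 ± 0.52 (edgeR, adjusted p = 0.275). Myl4 had 0.72, 3.8 and 12.9 CPM in KO and 0, 2.05 and 6.21 CPM in WT libraries, which overlap as well, and differed by 1.14 ± 0.49 (adjusted p = 0.304). In males alone Myl4 stood at -0.22. Tnnt2 differed by 0.45 ± 0.31, with 11.4 ± 6.76 CPM in KO and 9.03 ± 4.73 CPM in WT libraries (SD, n = 12 each; adjusted p = 0.605).

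**Figure D4:**
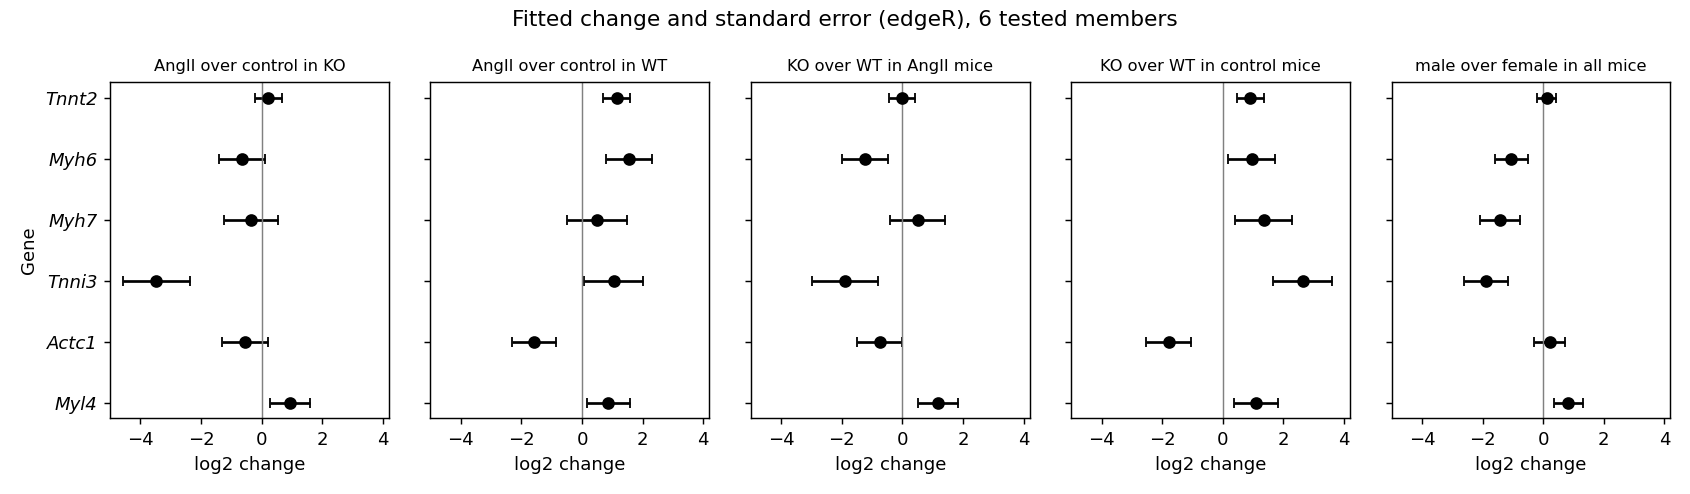
Fitted log2 change with its standard error (edgeR, 24 libraries) of the 6 tested genes in 5 comparisons, each named as the first group over the second. None passed an adjusted p of 0.05; the widest values belong to Tnni3, at -3.48 for AngII over control in KO mice and 2.63 for KO over WT in control mice.

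Males against females called 5.27% of all genes and 0 of the 6 (edgeR; 2 at an unadjusted p under 0.05, against 20.2% of all genes). Tnni3 had 0, 1.51 and 3.56 CPM in male and 0, 1.44 and 61.1 CPM in female libraries (lowest, median and highest of 12). The medians are close and the highest female value is KO control female 1. The fitted difference, male over female, was -1.89 ± 0.74 (edgeR, adjusted p = 0.13), and -0.70 without that library. DESeq2 and the fit without a count filter called it (adjusted p of 0.0475 and 0.0321), while limma-voom with quality weights gave 0.26 and an adjusted p of 0.863. Myh7 had 0, 1.18 and 3.40 CPM in male and 0, 1.94 and 14 CPM in female libraries, a difference of -1.44 ± 0.66 (adjusted p = 0.211), and of -0.74 without WT control female 1 and -0.93 without WT AngII female 1. Myh6 differed by -1.06 ± 0.54 (adjusted p = 0.276), and was called at -2.21 (adjusted p = 0.0403) once KO AngII male 3 was left out, the only KO AngII male with Myh6 counts. That fit leaves 2 libraries at 0 in the group.

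Over the 7 comparisons, 42 tests of the 6 genes gave 0 calls and 11 unadjusted p-values under 0.05, with log2 changes of -4.53 to 2.63 and a lowest adjusted p of 0.13 (edgeR). Of all genes, 4.03% to 20.2% had such unadjusted p-values, depending on the comparison. The comparisons share libraries, so the 42 tests are not independent of each other. Among the 6 genes DESeq2 called 1, Tnni3 for male over female, and limma-voom with quality weights called 0. The median change of the 6 genes was 0.96 for AngII over control in WT, -0.45 in KO, -0.38 for KO over WT in AngII and 1.03 in control mice, where the medians over all genes were -0.01, 0.01, 0.01 and -0.01. Because a gene passes the filter through the libraries in which it is high, these medians describe 6 genes only.

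Of 36 other genes known from heart muscle cells, 35 were found by symbol, 28 were measured here and 18 were tested. Nkx2-5 was not found under that spelling. Some names in the count table carry a dot where a hyphen is usual, so its level was not read. For AngII over control in WT 1 of the 18 was called, Hspb7, a small heat shock protein of heart and other muscle, where 0.208% of all genes were. For male over female 2 of the 18 were called, Hspb7 and Ttn, the giant spring protein titin, where 5.27% of all genes were. The other 16 were called in none of the 7 comparisons. Hspb7 had 193, 406, 369, 458, 511 and 770 CPM in WT AngII mice and 187, 175, 172, 250, 93.6 and 239 CPM in WT control mice. Of the 6 WT AngII libraries, 5 lay above every WT control library. It rose by 1.22 ± 0.27 in WT mice (edgeR, adjusted p = 0.0495), and stood at 0.92 ± 0.27 in KO mice (adjusted p = 0.323), with no difference shown between the genotypes (interaction -0.30 ± 0.38, adjusted p = 1). The call in WT was lost without any 1 of 12 libraries (KO AngII female 2, KO AngII males 2 and 3, WT AngII females 2 and 3, WT AngII males 2 and 3, WT control females 1, 2 and 3, and WT control males 2 and 3), at 1.04 to 1.29 with adjusted p of 0.0518 to 0.186. Fits that left out 1 library tested 17359 to 18347 genes, against 16316 in the main fit, which changes the adjustment. Without KO AngII female 2, a library outside this comparison, the value was 1.21 with an adjusted p of 0.0518 (edgeR). Hspb7 averaged 114 CPM per kb, above all 9 cardiac muscle genes, and was also higher in males, by 0.82 ± 0.19 (adjusted p = 0.00962).

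Ttn had 15.3, 25.9 and 34.5 CPM in male and 19.9, 34.4 and 90.4 CPM in female libraries (lowest, median and highest of 12). The ranges overlap, and the 3 highest were KO control female 1, KO AngII female 1 and KO control female 3. The fall in males was -0.69 ± 0.20 (edgeR, adjusted p = 0.0362). It was lost, at -0.46 to -0.68 with adjusted p of 0.0541 to 0.11, without any 1 of 12 libraries: KO AngII female 1, KO AngII male 3, KO control female 1, KO control males 2 and 3, WT AngII female 1, WT AngII males 1 and 3, WT control females 1 and 3, or WT control males 1 and 2. The fits that left out 1 library also tested more genes than the main fit. With limma-voom and quality weights the fall was -0.34 (adjusted p = 0.217). Without KO control females 1 and 3 together it was -0.53.

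Among other genes that define heart muscle, Nppb, the ventricular natriuretic peptide gene, had at most 1 count and was at 0 in 22 libraries. Mybpc3, cardiac myosin binding protein C, had 0 to 43 counts, highest in KO control female 1. Of the 28 measured genes of this list 13, or 46.4%, had their highest level in KO control female 1, against 17.5% of all tested genes. Ryr2, the calcium release channel of the heart that smooth muscle also uses, averaged 5.85 CPM per kb and was counted in all 24 libraries. The summed level of the list was 461 to 916 CPM in KO AngII, 339 to 769 CPM in KO control, 546 to 1089 CPM in WT AngII and 348 to 527 CPM in WT control mice; over all libraries Hspb7 and Ryr2 averaged 316 and 168 CPM. Among skeletal muscle genes, the fast myosin gene Myh4 had 0 to 18 counts, and 17 measured genes of that list summed to 23.0 to 92.3 CPM per library. The part of skeletal muscle RNA in the counts of Myh7, Actc1 and the other shared genes was not tested.

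The genes outside the 9 whose pattern was most like that of the 6 tested ones were sought by Pearson r between log2 CPM and the mean standardised level of the 6, over 24 libraries. The 8 most like it included Bai2 (r = 0.751), Cd86 (0.692) and Fcrl1 (0.674), and 5 genes with systematic names only. The heart muscle gene most like them was Ttn, at r = 0.52 and rank 198 of 16310. Among libraries that differ in depth such values describe the pattern and support no grouping of genes.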

How the data were processed

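Total RNA from 24 aortas was depleted of ribosomal RNA and sequenced, per the labels' protocols. The deposited table holds raw whole-number counts per gene, which the authors left unnormalized; the submitters' processing notes list featureCounts 1.4.6, the aligners Bowtie2 2.2.5 and TopHat2 2.0.14, the trimmer cutadapt 1.8.1 and mm10, while settings and strandedness are not given in the sources used here. Names and coordinates are from GENCODE M21, which matched 40254 of 41128 identifiers; 6547 genes (all of chromosomes MT, X, Y and 9, and chromosome 8 past 97565603) were 0 in every library and were treated as not measured.

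Counts were fitted with edgeR 4.0.16 (R 4.3.3) after filterByExpr (minimum count 10, minimum total 15) and TMM scaling, in 1 quasi-likelihood model with a mean for each of the 8 groups. Contrasts weight both sexes equally, were tested two-sided and adjusted by Benjamini and Hochberg over 16316 genes, and were called at an adjusted p under 0.05. The SE is the size of the log2 change divided by the square root of F. The procedure was tested on simulated data. Replicate numbers were not used as a block. Alternatives were RLE factors, protein-coding library sizes, other count filters, DESeq2 1.42.0, limma-voom (limma 3.58.1), a replicate block, the compared groups only, 1 sex only, each library left out, and KO control female replicates 1 and 3 left out together, the last chosen after seeing the data.

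Named were all 9 cardiac muscle genes, called members of the fixed lists (at most 4 per list), defining genes of the other muscle lists and the 8 genes of most similar pattern. Mb, Dnaaf3 and Gm13054 were named after their values were seen. The 9 genes and all lists were chosen with earlier results of these data known. Shared sequence was counted as 50-base words of GENCODE M21 transcripts.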

Additional observations from a re-analysis of the deposited data

Results flagged for a closer look

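In 15 of 34 sets of 6 mice (1 gene in 1 genotype and treatment, where at least 1 mouse had counts), the highest library stood far from the next by the gap between them relative to the range of the set (Dixon's 95% limit for 6 values). Chance flags about 1 in 20 such sets under even spread, and scarce counts are not spread evenly. A set with counts in only 1 library is flagged whatever its level. The share of sets flagged among all genes was not counted, so the 15 of 34 are not shown to be an excess.

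For the myosin heavy chains, KO AngII female 1 stood at 20.3 CPM of Myh6 (next 3.69) and 10.6 CPM of Myh7 (next 1.97), KO control male 1 at 10.7 CPM of Myh6 (next 4.99), and WT AngII female 1 at 29.0 CPM of Myh6 (next 7.95) and 14 CPM of Myh7 (next 2.03). For Myl2, KO AngII male 3 at 1.09 CPM and KO control male 3 at 1.70 CPM were the only libraries of their sets with counts, and WT AngII female 1 at 3.75 CPM and WT control male 2 at 2.12 CPM stood above 0.738 and 0.698 CPM. For Myl7, WT AngII male 2 was alone at 1.92 CPM, and WT control male 1 stood at 2.07 CPM above 0.366 CPM. On the thin filament, KO control female 1 stood at 28 CPM of Tnnt2 (next 9.81) and 61.1 CPM of Tnni3 (next 2.93), and KO AngII female 1 at 8.18 CPM of Tnni3 (next 2.22). KO control male 3 stood at 0.729 CPM of Nppa, on 3 counts, above 0.228 CPM. KO AngII female 1 and WT AngII female 1 account for 3 of these sets each and KO control female 1 for 2. Without KO AngII female 1, Myl4 for KO over WT in all mice was 0.87 against 1.14 with it, Myh7 for male over female was -1.07 against -1.44, and Tnni3 for AngII over control in KO was -4.31 against -3.48.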

How the results depend on the processing

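The number of cardiac muscle genes called stayed at 0 in all 7 comparisons under RLE factors, protein-coding library sizes, limma-voom and the replicate block, in the 4 comparisons fitted on the compared groups only, and in the 6 fitted in 1 sex only. Exceptions were 1 call (Tnni3) without a count filter for AngII over control in KO and for male over female, and 1 (Tnni3) with DESeq2 for male over female. Leaving out each library in turn gave 0 calls in 6 comparisons and 0 to 1 for male over female.

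Of 206 other-setting values of single genes, 188 kept their direction and side of the threshold. Reversed were Tnni3 without KO control female replicates 1 and 3 together, at 1.16 (AngII over control in KO), -2.03 (KO over WT in control mice), 0.11 (interaction) and 0.47 (male over female); Tnni3 for male over female with limma-voom, at 0.26; Myh6 for AngII over control in KO with females only, at 1.16; and Myl4 for KO over WT in all mice with males only, at -0.22. The fit without those 2 libraries leaves 1 in its group, so its filter kept 19679 genes and the lone library is assumed to vary like the others; the causes of the other reversals were not tested. With at least 50 counts in 3 libraries required, most of the 9 genes are dropped and give no value. Hspb7 was not called in WT with RLE factors, the stricter filter, the replicate block or 1 sex only. Ttn for male over female was not called with limma-voom. Ppp3cb for KO over WT in all mice was not called with females only, at -0.86 (edgeR, adjusted p = 0.0992).

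Mice that share a replicate number deviated together in 2 of 84 pairs (correlation over 0.1, range -0.102 to 0.132), and the main fit treated the numbers as labels. Pairs with different numbers were not read, so whether the numbers mark a shared batch was not tested. The replicate block gave 24 called genes for AngII over control in WT and 0 of the 6 tested genes, with Hspb7 at 1.24 (adjusted p = 0.0668).

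The number of genes called over the whole table moved more. For AngII over control in WT, edgeR called 34 genes, DESeq2 80, limma-voom 329 and edgeR without a count filter 134, against 5 with males only and 0 with females only. For AngII over control in KO the counts were 0 with edgeR, 17 with DESeq2, 0 with limma-voom and 85 without a count filter. For KO over WT in AngII mice they were 58, 152, 200 and 182 in that order, with 0 in either sex alone. In control mice they were 36, 183, 43 and 260, with 94 in females only, 0 in males only and 22 under the stricter filter. For KO over WT in all mice they were 219, 486, 373 and 559, with 107 under the stricter filter and 5 in males only. For male over female, edgeR called 860 and DESeq2 1458. The interaction had 0 calls, 12 without a count filter and 2 without KO control female replicate 2. Without KO control female replicates 1 and 3 together, KO over WT gave 3 calls in control mice and 131 in all mice, and AngII over control in WT gave 68. Leaving out KO control female replicate 2 gave 113 calls for AngII over control in KO, 399 for KO over WT in control mice, 624 in all mice and 1562 for male over female. The AngII count in WT was lowest, at 5, when WT AngII female replicate 3 was dropped, and highest, at 86, when replicate 1 of that group was.

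The 9 genes had a median of 88.5 counts per library, and a count of 0 allows up to 1.91 CPM in the shallowest library, so lower levels were not detectable there. The part of depth in these changes was not tested. A missed threshold does not show that a gene did not differ.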

Other observations

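Other lists, measured in the same libraries, describe what surrounded the 9 cardiac muscle genes. Smooth muscle genes were higher in males for Acta2 (0.79 ± 0.16), Des (1.16 ± 0.22), Actg2 (0.71 ± 0.18) and Smtn (0.48 ± 0.14), 4 of 10 tested (edgeR, adjusted p of 0.00158 to 0.0419), where 5.27% of all genes were called in either direction. Casq1, the calcium store protein of skeletal muscle, was higher in males by 1.01 ± 0.24 (edgeR, adjusted p = 0.00973). It was the single call among 9 tested skeletal muscle genes, against the same 5.27% of all genes. The median change of those 9 was -0.61, in the other direction from Casq1. Sox10, a Schwann cell factor, was higher in males by 1.83 ± 0.53 (edgeR, adjusted p = 0.0389). It was the single call among 6 tested neural and Schwann cell genes, whose median change was 0.04. Acta2 stood at 1410, 2480 and 2060 CPM in KO control females 1, 2 and 3. It had 2410 to 5800 CPM in the other female libraries and 2830 to 7130 CPM in male libraries. Whether these sex differences hold without the KO control females was not tested. In WT mice AngII raised Acan, Postn, Col1a1 and Col3a1, matrix genes that valves and fibroblasts express, by 2.48 ± 0.42, 1.44 ± 0.23, 1.46 ± 0.23 and 1.22 ± 0.23 (edgeR, adjusted p of 0.00235 to 0.0112), 4 of 10 tested genes of that list against 0.208% of all genes. Rcan1, which calcineurin signalling induces, was lower in KO than in WT mice, at -1.44 ± 0.25 over all mice (edgeR, adjusted p = 0.001). Brown fat genes summed to 81.1 to 603 CPM, white fat genes to 341 to 1684 CPM and endothelial genes to 298 to 1855 CPM per library.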
